A study of Homo sapiens with 4 samples.

Results

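The 10 genes described here encode GTPase-activating proteins (GAPs) that act on the small GTPases Rap, Ral and Rheb. They are the RapGAP genes SIPA1, SIPA1L1, SIPA1L2, SIPA1L3, RAP1GAP and RAP1GAP2, the genes of the RalGAP complex RALGAPA1, RALGAPA2 and RALGAPB, and TSC2. They were taken by symbol from the 41507 genes of the deposited gene table, and 77 of the 67765 listed transcripts belong to them. RNA was sequenced from SU-DHL-5 and Toledo, established B cell lines derived from diffuse large B cell lymphoma (DLBCL). Cells of each line received either DMSO, the solvent control, or 1 µM JQ1, an inhibitor that displaces BET bromodomain proteins from acetylated chromatin. Treatment lasted 6 h per the labels, whereas the legend of the study gives another time. There was 1 sample per condition (n = 1), sequenced as 2 libraries, and 4 samples in all. The libraries are not described as separate cultures, so nothing was tested across samples and p-values are not given.

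Small GTPases are switches that are on when bound to GTP and off when bound to GDP. Exchange factors load GTP, and GAPs speed its hydrolysis and so turn the switch off. Rap proteins control integrin adhesion and cell movement, Ral proteins control exocytosis and membrane traffic, and Rheb activates the growth kinase complex mTORC1. The GAPs of Rap, Ral and Rheb share a related catalytic domain that differs from that of the GAPs of RAS. SIPA1, also known as SPA-1, is the RapGAP best known from lymphocytes. The study sequenced RNA of these cells to look for the mechanism by which BET inhibition suppresses migration. It then examined the genes of RAS exchange factors and RAS GAPs by RNA sequencing and qPCR. The comparison here is JQ1 with DMSO within each line.

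Expression is given as RPKM, the reads of a gene scaled by its length and by the mapped reads of the library, so that levels may be compared between genes. The 8 libraries held 14617583 to 17679831 mapped reads, as recovered from the values. B cell markers were present in every library. CD79A ranged from 173 to 643 RPKM over the 8 libraries, CD79B from 217 to 474, MS4A1 from 11.7 to 109 and PAX5 from 5.46 to 21.6. MS4A1 and CD79A were lower with JQ1 in both lines, and their part in the results was not tested. T cell markers summed to at most 1.09 RPKM, myeloid markers to at most 0.216 RPKM, and EPCAM, KRT8 and KRT19 were at 0 in all 8 libraries. HEXIM1, a gene known to respond to BET inhibitors, was higher with JQ1 by 2.43 (SU-DHL-5) and 2.57 (Toledo) on the log2 scale. MYC, listed with it, had a log2 ratio of −0.29 in SU-DHL-5 and of 0.03, with overlapping libraries, in Toledo. The study reported lower MYC mRNA by qPCR with JQ1 in its DLBCL lines, including SU-DHL-5 and Toledo. In bulk RNA, a lower value can reflect fewer cells carrying a transcript or less of it per cell, and these cannot be told apart.

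In SU-DHL-5, 4 of the 8 genes with more than 3 reads in either condition lay wholly higher with JQ1, that is, each JQ1 library exceeded each DMSO library, namely RALGAPA1, RALGAPA2, RALGAPB and TSC2. Of all 11706 genes measured in that line, 37.3% did so. SIPA1 and SIPA1L1 (2 of 8) lay wholly lower, against 40.6% of all genes. In Toledo the corresponding counts were 5 of 8 above, namely the same 4 genes and SIPA1L2, against 26.8% of 12379 genes, and 1 of 8 below, SIPA1, against 44.9%. Of the 7 genes measured in both lines, 4 were above in both, against 21.4% of 11055 genes, and 1 was below in both, against 30.2%. The median log2 ratio of JQ1 over DMSO, computed on RPKM + 0.1, was 0.21 over the 8 genes in SU-DHL-5, against −0.02 over all genes. Over the 8 Toledo genes it was 0.31, against −0.11 over all genes. With library 1 of each condition alone the medians of the genes described were 0.15 (SU-DHL-5) and 0.43 (Toledo), and with library 2 alone 0.24 and 0.11.

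**Figure D1:**
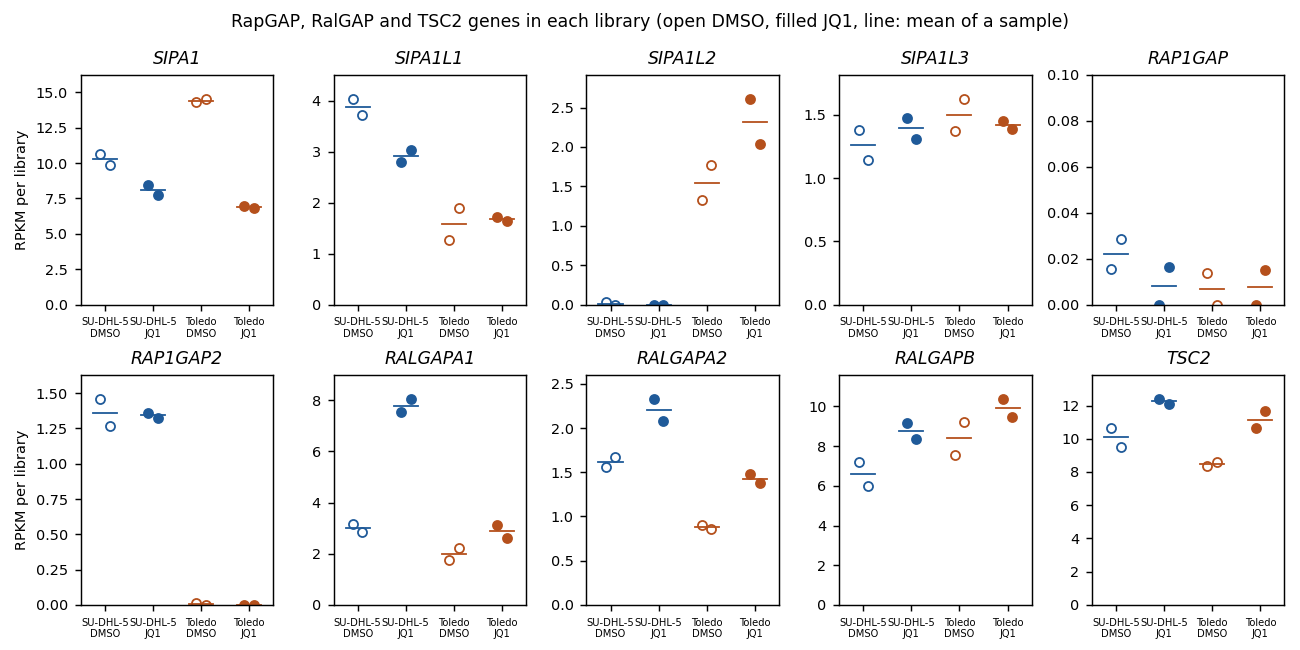
RPKM of the 10 genes (y axis) in each library of SU-DHL-5 (blue) and Toledo (orange), with open points for DMSO, filled points for JQ1 and a line at the mean of the 2 libraries of a sample. SIPA1 was lower with JQ1 in both lines, the RalGAP genes and TSC2 were higher, and RAP1GAP stayed at or below 0.0284 RPKM throughout.

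SIPA1 (chromosome 11, 65638107 to 65650920, plus strand) was the most abundant RapGAP gene of both lines. In SU-DHL-5 its level was 10.7 and 9.90 RPKM with DMSO and 8.44 and 7.77 RPKM with JQ1. Toledo had 14.3 and 14.5 RPKM with DMSO and 6.98 and 6.83 RPKM with JQ1. The JQ1 libraries thus lay below the DMSO libraries in both lines, with a wider gap in Toledo. The log2 ratio was −0.34 in SU-DHL-5, with a 95% exact binomial interval of the read ratio from −0.46 to −0.22. It was −1.05 in Toledo, with an interval from −1.18 to −0.94. These intervals rest on 975 to 1883 reads per condition and cover counting error only. The Toledo ratio of 0.480 was the only one of the 8 below 0.5, a mark passed by 15.6% of all genes in that line. In SU-DHL-5 none of the 8 genes had a ratio below 0.5, against 13.4% of all genes.

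The gene table gives SIPA1 as 1 value, while the transcript table divides it over 3 transcripts with separate start sites. SIPA1_1 held 95.2% of the summed transcript RPKM in SU-DHL-5 with DMSO and 89.6% in Toledo. SIPA1_3, which starts 2014 bases further downstream, was at 0 in all 4 SU-DHL-5 libraries. In Toledo it stood at 1.50 and 1.42 RPKM with DMSO and at 0.152 and 0.649 RPKM with JQ1, a ratio of 0.274. SIPA1_3 and SIPA1_1 differ by 129 bases in recovered length, so that few reads separate them and a value of 0 depends on how reads were divided between them. SIPA1_3 took 9.24% of the Toledo DMSO sum, just under the 10% set for naming a transcript, and was singled out after its values were seen. SIPA1_1 itself went from 13.8 and 14.5 RPKM to 7.53 and 6.85 RPKM in Toledo, a ratio of 0.508. The lower SIPA1 level in Toledo was therefore present in the main transcript as well as in SIPA1_3.

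The 120 bases before the RefSeq start sites of SIPA1_1 and SIPA1_3 are shown because SIPA1_3 was at 0 in SU-DHL-5 and SIPA1_1 was not. They are the plus strand of chr11:65637981-65638100 and of chr11:65640001-65640120 (RefSeq, GRCh38.p14), with the GC box GGGCGG or its complement in capitals.
SIPA1_1 upstream: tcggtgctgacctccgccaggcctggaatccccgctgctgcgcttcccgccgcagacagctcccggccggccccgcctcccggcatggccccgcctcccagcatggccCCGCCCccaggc
SIPA1_3 upstream: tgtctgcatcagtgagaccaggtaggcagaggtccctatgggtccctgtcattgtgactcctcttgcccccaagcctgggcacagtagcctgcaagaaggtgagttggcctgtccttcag
The listed start of SIPA1_1 lies 6 bases from the RefSeq start site, and that of SIPA1_3 coincides with its site. The full window of 300 bases, from 250 before the start to 50 after it, contained 1 GC box for SIPA1_1 and 0 for SIPA1_3. Of the 35116 RefSeq windows of that length, 45.0% held at least 1. The GC content was 71.0% for the first window and 59.0% for the second. Of the 10 genes, 9 had windows in the RefSeq table, and 12 of their 17 windows held a GC box.

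SIPA1L1 (chromosome 14, 71512743 to 71741229, plus strand), a RapGAP also known to bind actin at synapses, was the second RapGAP gene in SU-DHL-5. Its level there was 4.03 and 3.71 RPKM with DMSO and 2.79 and 3.03 RPKM with JQ1, a log2 ratio of −0.40 (interval −0.55 to −0.28). Toledo had 1.28 and 1.90 RPKM with DMSO and 1.73 and 1.65 RPKM with JQ1, and the groups overlapped. Transcripts SIPA1L1_1, SIPA1L1_4 and SIPA1L1_5 each held 28.8% to 37.9% of the sum in SU-DHL-5 with DMSO. Their division differed between libraries of the same sample: SIPA1L1_4 held 18.7% in one JQ1 library of SU-DHL-5 and 46.4% in the other. In the GENCODE v29 annotation, 19.1% of the exonic bases of SIPA1L1 also lie in exons of the antisense gene AC004974.1, and the sources do not say whether reads were counted by strand.

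SIPA1L2 (chromosome 1, 232397965 to 232630161, minus strand), another RapGAP of the SIPA1 family, was measured in Toledo only. The SU-DHL-5 libraries held 3 reads of it with DMSO and 0 with JQ1. In Toledo it stood at 1.32 and 1.77 RPKM with DMSO and at 2.61 and 2.04 RPKM with JQ1, a log2 ratio of 0.56 (interval 0.40 to 0.79). Toledo with DMSO was 118-fold higher than SU-DHL-5 with DMSO, a ratio with a counting interval of 41.3 to 593. In Toledo its transcripts SIPA1L2_2 and SIPA1L2_6 had ratios of 4.80 and 2.24, and that of SIPA1L2_1 was 0.755 with overlapping libraries. SIPA1L2_2 was at 0.183 and 0 RPKM with DMSO, from 22 reads, and at 0.605 and 0.273 RPKM with JQ1. SIPA1L2_6 was at 0.836 and 0.359 RPKM with DMSO and at 1.35 and 1.33 RPKM with JQ1. Its reads are not given, since its recovered length of 2231 bases is likely an underestimate. SIPA1L2_1 was at 0.277 and 1.21 RPKM with DMSO. Recovered lengths of SIPA1L2_1 and SIPA1L2_2 are 6941 and 6812 bases, so their values depend on how reads were divided.

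SIPA1L3 (chromosome 19, 37906889 to 38208369, plus strand), the remaining gene of the family, was at similar low levels everywhere. It was 1.38 and 1.14 RPKM with DMSO and 1.48 and 1.31 RPKM with JQ1 in SU-DHL-5. Toledo held 1.37 and 1.62 RPKM with DMSO and 1.45 and 1.39 RPKM with JQ1. The groups overlapped in both lines, and the intervals of the log2 ratios ran from −0.06 to 0.37 and from −0.27 to 0.13. SIPA1L3_2 was its main transcript, with 68.7% to 83.0% of the sum in the 4 samples. SIPA1L3_4 was at 0.396 and 0.291 RPKM in SU-DHL-5 with DMSO and at 0 in both JQ1 libraries, a transcript with 61 reads in the DMSO sample. In Toledo its libraries overlapped.

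RAP1GAP (chromosome 1, 21596215 to 21669517, minus strand), the founding RapGAP, had at most 3 reads in any sample and was not measured in either line. RAP1GAP2 (chromosome 17, 2776929 to 3037741, plus strand), a RapGAP known from platelets, was at 1.46 and 1.27 RPKM with DMSO and 1.36 and 1.33 RPKM with JQ1 in SU-DHL-5. Its groups overlapped, with a log2 ratio of −0.02 (interval −0.25 to 0.22). In Toledo it had 2 reads with DMSO and 0 with JQ1. SU-DHL-5 with DMSO was 167-fold higher than Toledo with DMSO, with a counting interval of 43.7 to 1321. RAP1GAP2_1 held 94.8% of the sum in SU-DHL-5 with DMSO and 94.5% with JQ1.

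Each line thus had 4 RapGAP genes with more than 3 reads, of which SIPA1, SIPA1L1 and SIPA1L3 were common to the lines. The fourth was RAP1GAP2 in SU-DHL-5 and SIPA1L2 in Toledo. The summed RPKM of the 6 RapGAP genes was 16.0 to 17.6 with DMSO and 13.5 to 14.1 with JQ1 in SU-DHL-5. In Toledo it was 18.3 to 19.8 with DMSO and 11.9 to 12.8 with JQ1, so the sum was lower with JQ1 in both. The share of SIPA1 in that sum was 73.3% to 78.1% in Toledo with DMSO and 54.7% to 57.3% with JQ1. In SU-DHL-5 it was 60.7% to 61.7% with DMSO and 57.8% to 60.0% with JQ1.

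**Figure D2:**
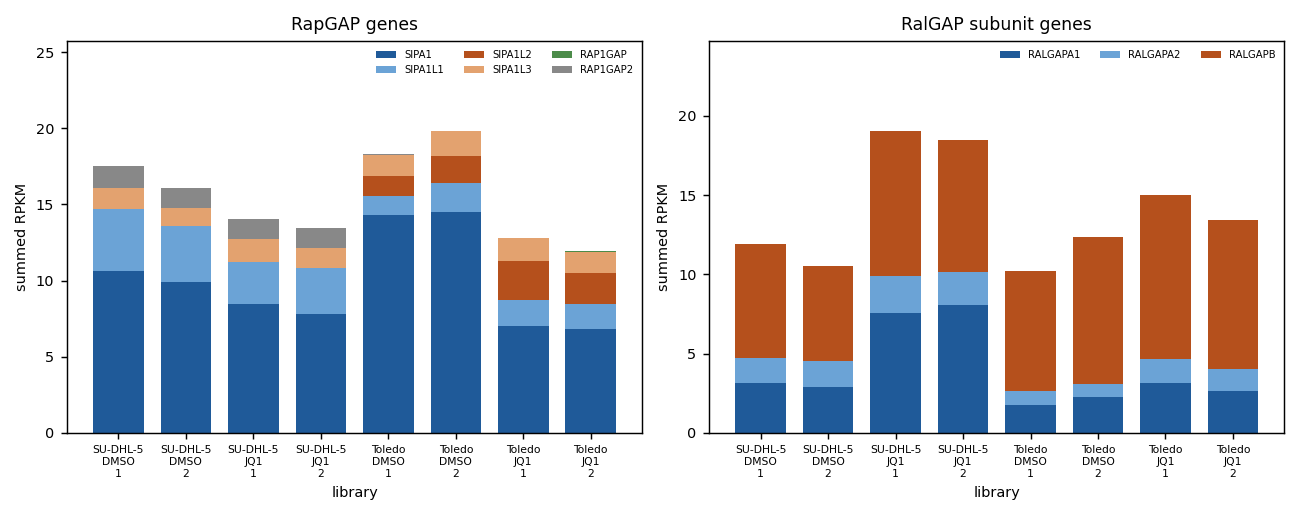
Summed RPKM (y axis) of the RapGAP genes (left) and of the RalGAP subunit genes (right) in each of the 8 libraries (x axis), stacked by gene. SIPA1 made up most of the RapGAP sum in every library and the sum was lower with JQ1, while the RalGAP sum was higher with JQ1 and the share of RALGAPA1 in SU-DHL-5 was 26.5% to 27.1% with DMSO and 39.7% to 43.5% with JQ1.

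The RalGAP complex pairs a catalytic α subunit, encoded by RALGAPA1 or RALGAPA2, with the β subunit encoded by RALGAPB. RALGAPA1 (chromosome 14, 35538352 to 35809226, minus strand) had the highest ratio of the genes described in SU-DHL-5. In SU-DHL-5 it was at 3.16 and 2.86 RPKM with DMSO and at 7.55 and 8.03 RPKM with JQ1. This was a log2 ratio of 1.34 (interval 1.26 to 1.48) from 963 and 2372 reads. It was the only one of the 8 genes with a ratio above 2 in SU-DHL-5, against 3.76% of all genes, and it exceeded the 95th percentile of all genes, 0.73. In Toledo RALGAPA1 was at 1.74 and 2.24 RPKM with DMSO and at 3.14 and 2.63 RPKM with JQ1, a log2 ratio of 0.51 (interval 0.40 to 0.69). The JQ1 libraries were again the higher ones, and no gene described had a ratio above 2 in Toledo, against 4.03% of all genes.

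Of the 15 listed transcripts of RALGAPA1, RALGAPA1_1 and RALGAPA1_2 carried most of the reads. RALGAPA1_1 went from 2.24 and 2.26 RPKM with DMSO to 7.0 and 7.1 RPKM with JQ1 in SU-DHL-5. The ratio was 3.12. RALGAPA1_2 in the same libraries was at 1.56 and 0.771 RPKM and at 1.50 and 1.34 RPKM, and its groups overlapped. In Toledo RALGAPA1_1 went from 0.325 and 0.362 RPKM to 0.934 and 2.02 RPKM, a ratio of 4.30. RALGAPA1_2 in Toledo overlapped between DMSO and JQ1, with a ratio of 1.13. RALGAPA1_1 thus held 60.3% of the sum with DMSO and 72.7% with JQ1 in SU-DHL-5. Its Toledo shares were 13.9% and 41.4%, the latter from JQ1 libraries of 24.1% and 62.0%. Both transcripts are listed with the same start and end and differ by 31 bases in recovered length, so that few reads separate them. The minor transcript RALGAPA1_4 was at 0.156 and 0.380 RPKM in Toledo with DMSO and at 0 in all other libraries.

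The 120 bases before the RefSeq start site of RALGAPA1 are shown because its SU-DHL-5 ratio was the highest of the set. They are the minus strand of chr14:35809296-35809415 (RefSeq, GRCh38.p14), with the palindromic cAMP response element TGACGTCA in capitals.
RALGAPA1 upstream: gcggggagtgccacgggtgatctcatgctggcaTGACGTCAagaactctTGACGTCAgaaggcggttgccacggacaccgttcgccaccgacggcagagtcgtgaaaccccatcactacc
The motif starts 87 and 71 bases before the RefSeq start site. Of the 35116 windows of 300 bases, 1.85% held it at least once and 21 (0.0598%) held 2 or more copies. No window of the other members held it. The motifs were chosen after the sequences had been seen, and a match is a description of the letters alone.

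RALGAPA2 (chromosome 20, 20389558 to 20712638, minus strand), the gene of the alternative α subunit, was less abundant. In SU-DHL-5 it was at 1.56 and 1.68 RPKM with DMSO and at 2.32 and 2.08 RPKM with JQ1, a log2 ratio of 0.42 (interval 0.28 to 0.62). In Toledo RALGAPA2 was at 0.908 and 0.861 RPKM with DMSO and at 1.48 and 1.37 RPKM with JQ1, a log2 ratio of 0.63 (interval 0.47 to 0.91). Both lines had the JQ1 libraries above the DMSO libraries. The main transcript RALGAPA2_4 had a ratio of 1.81 in SU-DHL-5 and of 2.01 for the Toledo cells. RALGAPA2_1 was at 0.498 and 0.547 RPKM with DMSO and at 0 and 0.404 RPKM with JQ1 in SU-DHL-5, and it overlapped in Toledo. Recovered lengths of RALGAPA2_4 and RALGAPA2_1 are 9426 and 9469 bases, so their ratios depend on how reads were divided. In Toledo with JQ1, RALGAPA2_1 was at 0.487 and 0 RPKM, and RALGAPA2_4 held 67.9% and 100% of the sum.

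RALGAPB (chromosome 20, 38472806 to 38578861, plus strand) was the most abundant gene of the complex. It was at 7.19 and 6.01 RPKM with DMSO and at 9.16 and 8.35 RPKM with JQ1 in SU-DHL-5. The log2 ratio was 0.40 (interval 0.33 to 0.50). In Toledo RALGAPB was at 7.56 and 9.23 RPKM with DMSO and at 10.4 and 9.45 RPKM with JQ1, a log2 ratio of 0.24 (interval 0.17 to 0.32). The Toledo libraries stood apart narrowly, since the lowest ratio of a JQ1 to a DMSO library was 0.03 on the log2 scale. RALGAPB_2 was the transcript with the higher ratio in both lines, 1.82 for SU-DHL-5 and 2.13 for Toledo. RALGAPB_1 had ratios of 1.09 and 1.13. These transcripts are listed with the same start and end, and their recovered lengths are 8673 (RALGAPB_1) and 8664 bases (RALGAPB_2). Few reads therefore separate them, and their ratios depend on how reads were divided. RALGAPB_7 went from 0.983 and 2.18 RPKM to 0.242 and 0.510 RPKM in Toledo, a ratio of 0.237, whereas its libraries overlapped in SU-DHL-5. At 8631 bases RALGAPB_7 is close to both in length, and in the SU-DHL-5 DMSO libraries it was at 0.384 and 1.83 RPKM.

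Within a library, RALGAPA1 exceeded RALGAPA2 by 1.70 to 2.02 times with DMSO and by 3.25 to 3.86 times with JQ1 in SU-DHL-5. In Toledo this ratio was 1.92 to 2.60 with DMSO and 1.91 to 2.12 with JQ1, and the groups overlapped. RALGAPB stood at 1.32 to 1.52 times the summed α subunit RPKM with DMSO and at 0.825 to 0.927 times with JQ1 in SU-DHL-5. In Toledo it was 2.85 to 2.97 times with DMSO and 2.24 to 2.36 times with JQ1. The α subunit transcripts therefore made up a larger part of the RalGAP RNA with JQ1 in both lines, and only in the SU-DHL-5 libraries with JQ1 did their sum exceed RALGAPB.

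TSC2 (chromosome 16, 2047802 to 2088712, plus strand) encodes tuberin, the GAP of Rheb that restrains mTORC1. It was at 10.7 and 9.50 RPKM with DMSO and at 12.4 and 12.1 RPKM with JQ1 in SU-DHL-5. The log2 ratio was 0.28 (interval 0.20 to 0.37). In Toledo TSC2 was at 8.33 and 8.57 RPKM with DMSO and at 10.6 and 11.7 RPKM with JQ1, a log2 ratio of 0.39 (interval 0.31 to 0.49). The JQ1 libraries were above the DMSO libraries in both lines by similar amounts. Its main transcript TSC2_9 went from 6.14 and 6.82 RPKM to 9.05 and 9.43 RPKM in SU-DHL-5. In Toledo TSC2_9 went from 6.07 and 5.51 RPKM to 8.33 and 9.58 RPKM. The ratios of TSC2_9 were 1.43 and 1.55, and those of TSC2_4, which starts 187 bases upstream, were 1.03 and 1.17. The minor transcript TSC2_8, listed with the same start as TSC2_9, went the other way. Its ratio was 0.404 with overlapping libraries in SU-DHL-5 and 0.353 in Toledo, from 150 and 154 reads with DMSO. In the SU-DHL-5 DMSO libraries TSC2_8 was at 1.40 and 0.296 RPKM. Recovered lengths are 5431 (TSC2_9), 5563 (TSC2_8) and 5614 bases (TSC2_4), so the ratios of these transcripts depend on how reads were divided. In GENCODE v29, 3.96% of the exonic bases of TSC2 also lie in exons of PKD1 and 2.05% in exons of NTHL1, both on the opposite strand.

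The 120 bases before the RefSeq start site next to the start of TSC2_9 are shown because that transcript had the higher ratio of the 2 main ones in both lines. They are the plus strand of chr16:2047865-2047984 (RefSeq, GRCh38.p14), with the E-box CACGTG, a sequence bound by MYC and related factors, in capitals.
TSC2 upstream: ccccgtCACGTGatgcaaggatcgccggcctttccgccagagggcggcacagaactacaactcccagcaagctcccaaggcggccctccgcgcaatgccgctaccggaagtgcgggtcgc
This start site is also the nearest to the starts of TSC2_7 and TSC2_8, and TSC2_8 did not rise with JQ1. The E-box starts 114 bases before the start site, and 7.26% of the 35116 windows of 300 bases held at least 1. The window also held the ETS-type sequence CCGGAAGT, 17 bases before the start and present in 4.14% of all windows, and 1 GC box. The E-box was not particular to TSC2, since a window of RAP1GAP2 held it too, 26 bases before the start. That start site lies 121706 bases from the nearest listed start of RAP1GAP2, whose libraries overlapped between DMSO and JQ1 in SU-DHL-5. The level of MYC itself was 44.1 and 40.9 RPKM with DMSO and 35.2 and 34.4 RPKM with JQ1 in SU-DHL-5. In Toledo MYC was at 40.4 and 44.4 RPKM with DMSO and at 44.6 and 42.1 RPKM with JQ1, and its groups overlapped. The E-box match describes the letters alone, and a link between MYC and the level of TSC2 was not tested.

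**Figure D3:**
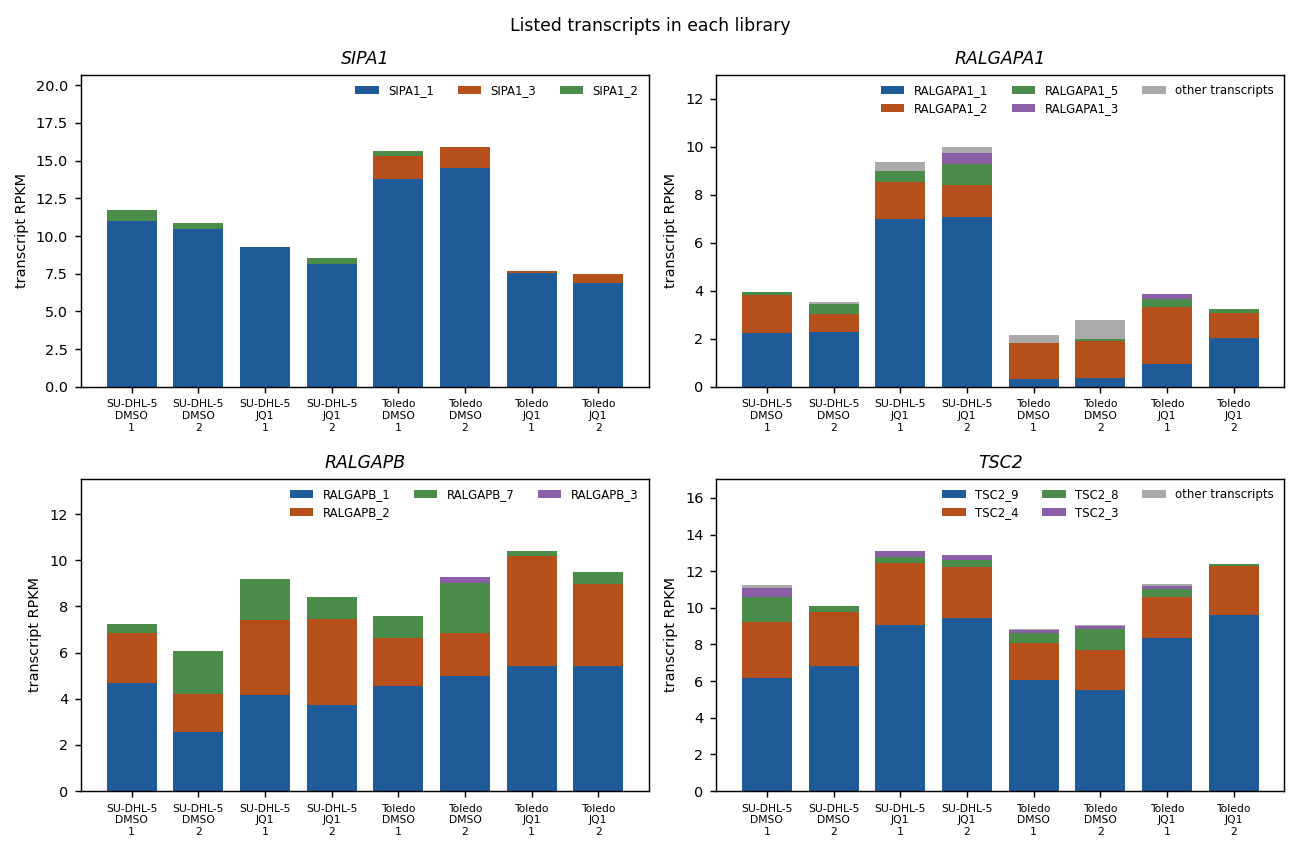
RPKM of the listed transcripts (y axis) of SIPA1, RALGAPA1, RALGAPB and TSC2 in each of the 8 libraries (x axis), stacked by transcript. RALGAPA1_1 was higher with JQ1 in both lines, SIPA1_3 was present in Toledo and at 0 in SU-DHL-5, and the split of RALGAPB between RALGAPB_1 and RALGAPB_7 varied between libraries of the same sample.

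Over all 77 transcripts, 45 were above 0 in at least 1 library and 15 in all 8. In SU-DHL-5, 27 were above 0 with DMSO, of which 7 had a JQ1 to DMSO ratio below 0.5, against 28.8% of all transcripts, and 4 a ratio above 2, against 9.83%. In Toledo, 38 were above 0 with DMSO, of which 16 had a ratio below 0.5, against 31.8%, and 6 a ratio above 2, against 9.11%. Most of these were minor transcripts, and RAP1GAP_3 had 1 read with DMSO in each line. For other minor transcripts the recovered reads may be underestimated, where the recovered length is too short. With at least 1 RPKM in DMSO, 0 of 13 were below 0.5 in SU-DHL-5, against 13.3%, and 1 of 13, RALGAPA1_1, was above 2, against 2.85%. In Toledo, 2 of 9, RALGAPB_7 and SIPA1_3, were below 0.5, against 15.7%, and 1 of 9, RALGAPB_2, was above 2, against 2.61%. Each transcript named here is close in length to another of its gene, so its ratio depends on how reads were divided.

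The lines were next compared without JQ1. In SU-DHL-5 with DMSO the order of mean levels was SIPA1 and TSC2, whose libraries overlapped, then RALGAPB, SIPA1L1, RALGAPA1 and RALGAPA2, and last RAP1GAP2 and SIPA1L3, whose libraries overlapped. In Toledo with DMSO it was SIPA1, then TSC2 and RALGAPB with overlapping libraries, then RALGAPA1, SIPA1L1, SIPA1L2 and SIPA1L3, each overlapping its neighbour, and last RALGAPA2. Of 9 genes with more than 3 reads in either line, Toledo was above SU-DHL-5 in 3 (SIPA1, SIPA1L2 and RALGAPB), against 44.1% of 12868 genes. It was below in 5 (SIPA1L1, RAP1GAP2, RALGAPA1, RALGAPA2 and TSC2), against 40.1%. SIPA1 was 1.40-fold higher in Toledo (counting interval 1.31 to 1.51) and SIPA1L1 was 2.44-fold higher in SU-DHL-5 (2.20 to 2.74). These intervals leave out the spread between libraries, and SIPA1L1 was at 1.28 and 1.90 RPKM in the Toledo DMSO libraries. RALGAPA1 was 1.51-fold and RALGAPA2 1.83-fold higher in SU-DHL-5.

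The response to JQ1 was then compared between the lines, as the difference of the log2 ratios, Toledo minus SU-DHL-5. It was −0.71 for SIPA1 (conditional exact 95% interval of the reads −0.89 to −0.55) and −0.83 for RALGAPA1 (−1.01 to −0.65). For SIPA1L1 it was 0.48 (0.28 to 0.74). The difference from library 1 alone was −0.41 for RALGAPA1 and 0.92 for SIPA1L1, and from library 2 alone −1.24 and 0.09, all outside the intervals of the reads, whereas for SIPA1 it was −0.69 and −0.73. In these 3 genes, the ratios of all library pairs of one line also lay apart from those of the other. For RALGAPA2 the library pairs were apart too, but the difference of 0.21 had an interval from −0.03 to 0.52. In all, 2 of 7 genes had library pairs of Toledo below those of SU-DHL-5, against 28.1% of 11055 genes, and 2 of 7 had them above, against 13.7%. The intervals of the difference for TSC2 ran from −0.01 to 0.24 and for SIPA1L3 from −0.52 to 0.07. RALGAPB had a difference of −0.17 (−0.29 to −0.05) with overlapping library pairs, and it was 0.11 from library 1 alone and −0.43 from library 2 alone. For RALGAPA2 the corresponding values were 0.11 and 0.32.

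**Figure D4:**
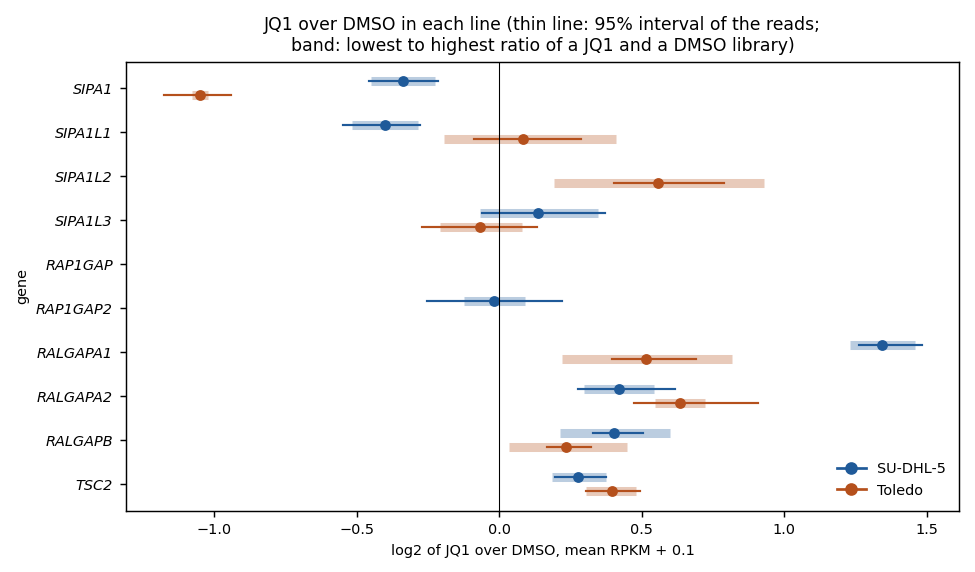
Log2 ratio of JQ1 over DMSO (x axis, mean RPKM + 0.1) of each gene (y axis) in SU-DHL-5 (blue) and Toledo (orange), with the 95% interval of the read ratio as a thin line and the range over the 4 pairs of a JQ1 and a DMSO library as a band. SIPA1 lay below 0 in both lines and further in Toledo, while RALGAPA1, RALGAPA2, RALGAPB and TSC2 lay above 0 in both.

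Libraries of the same sample differed beyond counting error. A chi-square per gene, which would average 1 from counting alone, averaged 7.07 for the DMSO libraries and 1.95 for the JQ1 libraries of SU-DHL-5. For Toledo it averaged 15.8 and 4.62. In Toledo with DMSO, library 2 exceeded library 1 the more, the longer the gene: the median log2 ratio was −0.15 in the shortest of 10 length classes and 0.29 in the longest. RALGAPA1, RALGAPA2, RALGAPB, SIPA1L1 and SIPA1L3 belonged to the longest class. In these Toledo DMSO libraries, library 2 over library 1 was 0.54 for SIPA1L1, 0.39 for SIPA1L2, 0.35 for RALGAPA1 and 0.29 for RALGAPB. It was 0.23 for SIPA1L3 and −0.07 for RALGAPA2, both below the median of the longest class, and 0.02 for SIPA1 and 0.04 for TSC2. The part of this trend in the Toledo ratios of the long genes was not tested beyond the centring on length classes, under which the 5 genes above DMSO remained above. From library 1 alone the Toledo log2 ratio was 0.82 for RALGAPA1, 0.93 for SIPA1L2 and 0.45 for RALGAPB, and from library 2 alone it was 0.22, 0.19 and 0.03. Centring on length classes gave 0.15 for RALGAPB.

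**Figure D5:**
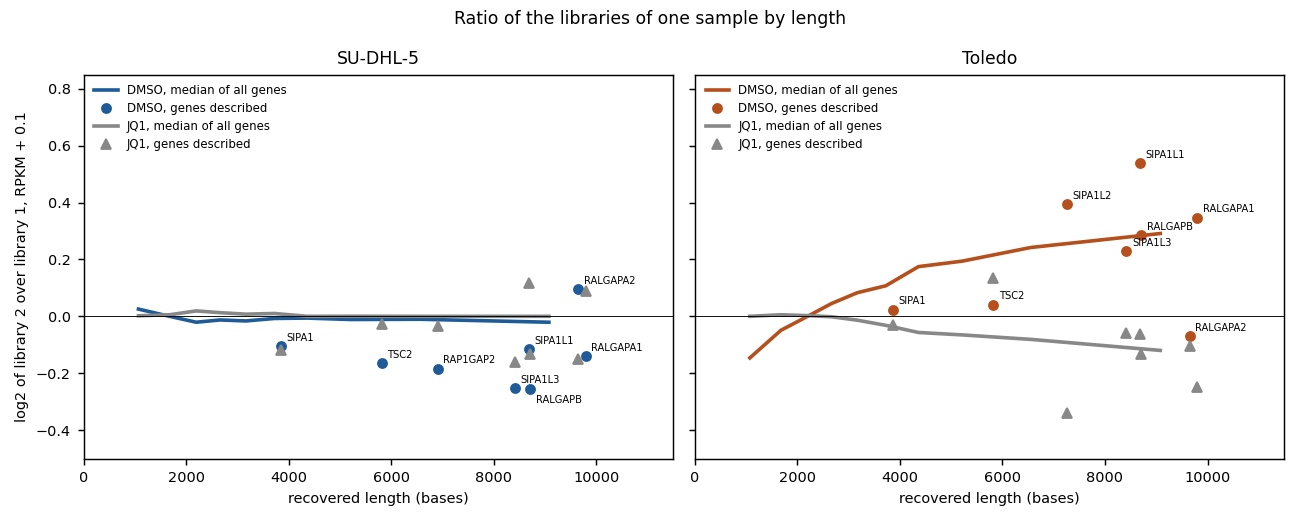
Log2 ratio of library 2 over library 1 of the same sample (y axis, RPKM + 0.1) against recovered gene length in bases (x axis) in SU-DHL-5 (left) and Toledo (right), with lines for the median of all genes in 10 length classes and points for the genes described. The median for Toledo DMSO runs from −0.15 to 0.29, and SIPA1L1, SIPA1L2 and RALGAPA1 lie above it.

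The substrates and partners of these GAPs were examined as lists. Of 5 Rap GTPase genes, 4 lay wholly higher with JQ1 in each line, against 37.3% (SU-DHL-5) and 26.8% (Toledo) of all genes. Their median log2 ratio was 0.57 for SU-DHL-5 and 0.35 for Toledo, against −0.02 and −0.11 over all genes. RAP1B, the most abundant, was at 104 and 108 RPKM with DMSO and 135 and 139 RPKM with JQ1 in SU-DHL-5. RAP2A had the highest ratio of the list in SU-DHL-5 (0.62) and RAP2B in Toledo (0.63). RAP2C had the lowest in both, with overlapping libraries in SU-DHL-5 (−0.15) and lower values with JQ1 in Toledo (−0.56). Of the Ral GTPase genes, RALA was higher with JQ1 in SU-DHL-5 (0.43) and overlapped in Toledo (0.07), and RALB overlapped in both. RHEB, the substrate of TSC2, had a log2 ratio of 0.04 in SU-DHL-5, with overlapping libraries, and of −0.06 for the Toledo cells.

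Among exchange factors of at least 1 RPKM, which act against the GAPs, RAPGEF2 had the highest ratio of the Rap list in both lines (0.78 and 0.72) and RAPGEF5 the lowest (−0.55 and −0.52). Of the Ral exchange factors, RALGPS2 was the highest in SU-DHL-5 (0.90), RALGPS1 in Toledo (0.96), and RGL2 the lowest in both (−1.21 and −1.13). Among Rap effectors, RASSF5, which links Rap1 to integrins in lymphocytes, was at 7.04 and 6.61 RPKM with DMSO and 2.56 and 2.47 RPKM with JQ1 in SU-DHL-5. In Toledo RASSF5 was at 11.1 and 11.9 RPKM with DMSO and 4.84 and 4.63 RPKM with JQ1. The log2 ratios were −1.41 and −1.26, the lowest of that list in both lines, and AFDN had the highest, 0.43 and 0.67. EXOC2, an exocyst subunit bound by Ral, was higher with JQ1 in both lines (0.38 and 0.32). Of the TSC and mTORC1 list, TBC1D7, the third subunit of the TSC complex, was highest (0.84 and 0.60) and MLST8 lowest (−0.29 and −0.72). TSC1 itself had log2 ratios of 0.30 and 0.31, close to those of TSC2. Over all pathway lists, 19 of 33 measured genes were above and 7 below in SU-DHL-5. For Toledo, 15 of 33 were above and 12 below, to be read against the shares of all genes given above. Their median log2 ratio was 0.28 for SU-DHL-5 and 0.09 for Toledo.

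The genes whose pattern over the 8 libraries was most like that of SIPA1 were sought by the root mean square distance of centred log2(RPKM + 0.1) among 9520 other genes with a mean of at least 1 RPKM. They were TRABD (distance 0.09), LSM5 (0.10) and MAP3K10 (0.10). TRABD, for example, was at 25.3 and 24.2 RPKM in SU-DHL-5 with DMSO and at 17.4 and 16.6 RPKM with JQ1. In Toledo TRABD was at 32.5 and 31.4 RPKM with DMSO and at 17.0 and 16.9 RPKM with JQ1. None of the 3 lies on chromosome 11.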

How the data were processed

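RNA of the 4 samples was sequenced from libraries of a stranded mRNA kit. For 8 libraries the authors deposited expression of genes and transcripts in RPKM. The submitters' processing notes name CASAVA 2.0 and the build GRCh38 (hg38). The aligner, the counting and the annotation are not given in the sources used here. No reads were processed.

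Mapped reads per library were recovered as the total that turned the RPKM of single-exon genes into whole reads, and the length of a feature as the smallest whole number from 100 to 40000 bases that made its values whole within 0.02 reads or 2e-06 of the reads. This gave a length for 14942 of 14944 genes with a value, and 93.3% to 94.3% of mapped reads fell on genes. Where a feature has few reads, its recovered length and reads may both be underestimated by the same factor. These recovered reads served for intervals and for the floor of 3 reads: no JQ1 to DMSO ratio was formed for a gene at or under it in both conditions. Transcript counts had no such floor, and folds between lines that rest on 2 or 3 reads carry their counting interval. The procedure was tested on simulated data.

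The 2 libraries of a sample were averaged. Ratios are log2((JQ1 + 0.1)/(DMSO + 0.1)) of the mean RPKM. This scale understates changes of low genes. Intervals are 95%, exact binomial or, between lines, conditional exact, and cover counting error only. Folds between lines are ratios of mean RPKM with the interval of the reads. The members and lists were chosen with earlier results of these data known. The genes named were all members, the lowest and highest ratio of each pathway list with at least 1 RPKM in the line, the 3 genes most like SIPA1, and transcripts with at least 10% of the gene's transcript RPKM in a sample. Some listed genes are not reported here. RAP1B, RALA, RALB, RHEB, TSC1, MYC and HEXIM1 are given as background, as are SIPA1_3 and other minor transcripts chosen after their values were seen. File starts count from 0 and are given here plus 1. Strands, exon overlaps and promoters come from GENCODE v29 and RefSeq. Whether counting used the strand is not given in the sources used here. Python 3.11.15, pandas 2.3.3, numpy 2.4.6 and scipy 1.17.1 were used. Alternatives were summed transcripts, a minimum of 1 RPKM, scaling by the median ratio, centring on length classes, pseudocounts of 0.01 and 1, each library alone, and calls by the interval.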

Additional observations from a re-analysis of the deposited data

How the results depend on the processing

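No paired analysis was possible because there was 1 sample per condition. Centring on 10 classes of gene length lowered the median log2 ratio of the members in SU-DHL-5 from 0.21 to 0.13 and gave 2 members below DMSO in Toledo, SIPA1 and SIPA1L3, in place of 1. Requiring at least 1 RPKM with DMSO lowered the count of transcripts below 0.5 from 7 to 0 for SU-DHL-5 and from 16 to 2 for Toledo. The other counts of members above or below DMSO were the same under summed transcripts, a minimum of 1 RPKM, scaling by the median ratio and calls by the interval of the reads. Of 128 alternative values of single members, 0 reversed a called direction and 112 stayed within the interval of the reads. Part of this was fixed in advance. The values under a minimum of 1 RPKM equal the main values by construction, and a pseudocount cannot reverse the sign of a ratio. The 16 that moved included RALGAPA1 in SU-DHL-5, at 1.13 with a pseudocount of 1 and 1.25 after centring. SIPA1L1 in Toledo, not called, was 0.41 from library 1 alone and −0.19 from library 2 alone. The difference between lines from each library alone, an alternative chosen after seeing the data, moved beyond the interval of the reads for SIPA1L1, RALGAPA1 and RALGAPB. The cause was not tested. At most 3 reads per condition were found for RAP1GAP in both lines, SIPA1L2 in SU-DHL-5 and RAP1GAP2 in Toledo. No JQ1 to DMSO ratio could be given there. With DMSO and at similar depth, the other line held 379 reads of SIPA1L2 and 307 of RAP1GAP2.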
